A study of Drosophila melanogaster with 2 samples.

Results

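The genes jing, tara, sbb, RapGAP1, cv-c and SKIP of Drosophila melanogaster are 6 long loci described here by the places where the transcription factor Twist was found on them. They were chosen by a measured value. Each had 16 or more summits, the highest points of peaks, in the gene body or within 5 kb of it, in the authors' list of peaks kept by irreproducible discovery rate (IDR), a measure of how well replicates rank the same peaks. They are 6 of the 11 genes that reach this number among 13968 protein-coding genes, or 0.0788% of them, so the counts are a description and carry no test. The data are chromatin immunoprecipitation with sequencing from a transgenic fly line with a stable Twist fusion that carries GFP at its C-terminus, precipitated with an antibody to GFP. The embryos were whole, of mixed sex and 2 to 12 h old, and formed 1 group of 2 biological replicates. Every tissue contributed chromatin, so cells that hold Twist were not separated from the others. The promoter that drives the fusion is not given in the sources used here, and neither an untagged line nor another stage was analysed here.

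Twist is a basic helix-loop-helix protein that specifies the mesoderm and is needed for the folding of the ventral furrow. Proteins of this family bind E-boxes, sites of the form CANNTG, as dimers, and CATATG and CACATG are forms known for Twist. Developmental genes of the fly often carry several enhancers spread over long introns, and an enhancer in an intron may act on the host gene, on a gene nested in it or on a neighbour.

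The products of the 6 genes are of 3 kinds. In the nucleus act jing, a zinc-finger protein needed for border cell migration and for the midline of the central nervous system and the tracheae, tara, a SERTA-domain protein found as a member of the trithorax group, and sbb (scribbler, also called brakeless), a co-repressor. RapGAP1 and cv-c restrain small GTPases, RapGAP1 by inactivating Rap1, which acts in cell adhesion, and cv-c (crossveinless c) as a GTPase-activating protein that shapes epithelial tubes. SKIP is named for the interaction of its product with the Shal potassium channel.

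The bases around the strongest summits show which of them carried an E-box and where it lay. Each window printed here holds 101 bases, 50 on each side of a summit, from the plus strand of the Release 6 (dm6) reference of RefSeq, and capitals mark every CANNTG. The first is the strongest summit of tara (chr3R:16255383-16255483), with a CATATG. The next is that of cv-c (chr3R:14457135-14457235), with a CACATG that reads CATGTG on this strand. Of SKIP the strongest (chr3R:22142489-22142589) and the single member summit with both forms (chr3R:22187329-22187429) are given, since the latter was a weak site. Of RapGAP1 the strongest (chr2L:7530709-7530809), which held no E-box of any form, and the strongest with CATATG or CACATG (chr2L:7576873-7576973) are given.
tara, rank 151: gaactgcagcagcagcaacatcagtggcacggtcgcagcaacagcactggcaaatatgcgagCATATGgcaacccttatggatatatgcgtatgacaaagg
cv-c, rank 209: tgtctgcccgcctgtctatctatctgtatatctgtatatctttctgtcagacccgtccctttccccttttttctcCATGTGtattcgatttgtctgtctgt
SKIP, rank 764: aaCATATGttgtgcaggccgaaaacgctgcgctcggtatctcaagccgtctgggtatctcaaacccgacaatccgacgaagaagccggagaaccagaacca
SKIP, rank 5729: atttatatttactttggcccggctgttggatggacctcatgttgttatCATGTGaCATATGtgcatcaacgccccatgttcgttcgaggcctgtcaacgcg
RapGAP1, rank 162: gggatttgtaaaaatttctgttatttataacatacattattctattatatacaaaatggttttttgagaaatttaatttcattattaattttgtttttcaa
RapGAP1, rank 2215: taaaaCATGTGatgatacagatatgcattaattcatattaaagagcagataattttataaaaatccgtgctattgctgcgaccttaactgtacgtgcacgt

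The signal rank, 1 being the highest of the 6516 IDR summits, orders these sites. The tara summit ranked 151, with rank 245 in replicate 1 and 95 in replicate 2, and lay 29782 bp from the first start of the gene, toward the end of its intron. The cv-c summit ranked 209 (263 in replicate 1 and 180 in replicate 2) and lay 24528 bp from the start in the first intron. The RapGAP1 summit ranked 162 (125 and 232) and lay 185 bp from one of the gene's internal starts. G and C made up 16.8% of its window, the lowest share of any member summit. The strongest RapGAP1 summit with CATATG or CACATG came far down the list, at rank 2215, and lay 316 bp from another of its starts. The strongest SKIP summit ranked 764 (1029 and 523) and lay 8709 bp from the first start in the second intron. The SKIP summit with both forms, separated by a single base, lay in the fourth intron and ranked 5729 (7968 and 4458).

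The strongest sites of jing and sbb, whose sequences are not shown, differed in the same way. That of jing ranked 145 (162 in replicate 1 and 136 in replicate 2), the highest of the 6 loci, and lay 71556 bp from the first start in the first intron, 27416 bp from the nearest start of any gene. It held 1 CATATG and 1 CAGCTG. That of sbb ranked 243 (214 and 315) and lay 20114 bp from the start in the second intron, with no E-box of any form. The next at sbb, at rank 403 and 148 bp upstream of its start, held none either.

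The 6 windows held 109 IDR summits. The jing window of 129.8 kb held 20, that of tara 19 in 44.7 kb, that of RapGAP1 19 in 91.2 kb, that of cv-c 18 in 100031 bp, that of SKIP 17 in 172 kb and that of sbb 16 in 89.1 kb. The order by density differs from the order by number. Tara had 0.425 summits per kb, RapGAP1 0.208, cv-c 0.180, sbb 0.180, jing 0.154 and SKIP 0.0987. Over the 7 assembled chromosomes the list had 0.0474 per kb, so the density was 8.98 times that of the genome at tara and 2.08 times at SKIP. Among the 557 protein-coding genes with a window at least as long as that of tara, the shortest member, the median density was 0.0218 per kb and 194 held no summit. In that set tara came first by density, RapGAP1 was at place 12, cv-c at 21, sbb at 22, jing at 31 and SKIP at 79.

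**Figure D1:**
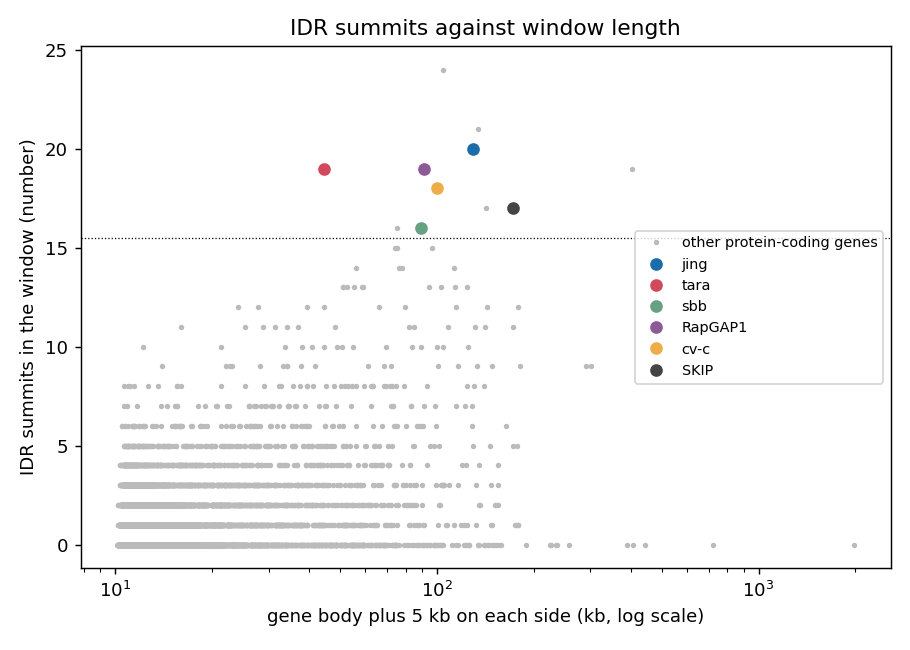
Each point is a protein-coding gene; the x axis is the length of its body plus 5 kb on each side (kb, log scale) and the y axis the number of IDR summits in that window, with the 6 loci in colour and a dotted line just below 16. Tara reaches 19 summits at 44.7 kb, the shortest window above the line, and SKIP 17 at 172 kb.

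The other protein-coding genes above the threshold were fz2 with 24 summits, CG1677 with 21, kirre with 19, hth with 17 and MSAmiP with 16. The members just inside the threshold were sbb with 16 and SKIP with 17, and the genes just outside it, with 15 each, were CG42238, rdx and ush. The non-coding genes lncRNA:CR44357 and lncRNA:iab8 held 33 and 20. By density and window length together, as Euclidean distance on the log2 scale over these 2 measures, the nearest gene to jing was CG1677 (0.06), then Antp and hth. The nearest to sbb was px (0.20), then Hr4 and CG42238, and the nearest to cv-c was CG42238 (0.22), then fz2 and px. The nearest to RapGAP1 was fz2 (0.24), then MSAmiP and rdx, and the nearest to SKIP was Ptp61F (0.36), then hth and CadN. Tara stood farthest from its nearest gene, Alh (0.52), which had 12 summits in 39.6 kb, followed by crp and atos.

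The replicates gave similar numbers of peaks in each window. Of the 30000 peaks listed for each replicate, jing held 97 in replicate 1 and 89 in replicate 2, tara 46 and 44, sbb 65 and 66, RapGAP1 66 and 62, cv-c 72 and 65, and SKIP 75 and 63. The pooled list, also of 30000 peaks, held 99 summits at jing, 48 at tara, 64 at sbb, 69 at RapGAP1, 70 at cv-c and 76 at SKIP. The share of these in the IDR list was 39.6% at tara, 27.5% at RapGAP1, 25.7% at cv-c, 25% at sbb, 22.4% at SKIP and 20.2% at jing, where the genome had 21.7%. The IDR count is the one by which the loci were chosen. With 48 pooled summits, any count of 16 or more gives tara a larger share than the others had, so its place follows from the choice.

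Within 100 bp, 107 of the 109 summits had a summit in both replicate lists. The other 2, one at tara and one at cv-c, had it in replicate 1 alone. Over all IDR summits 95.4% were matched in both, a share near that of the members, and the list was itself derived from these replicates. Across the 107 summits the ranks in the replicates had a Spearman correlation of 0.776, and over all matched IDR summits of 0.729. These points share libraries and loci, so the values describe the sites only.

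**Figure D2:**
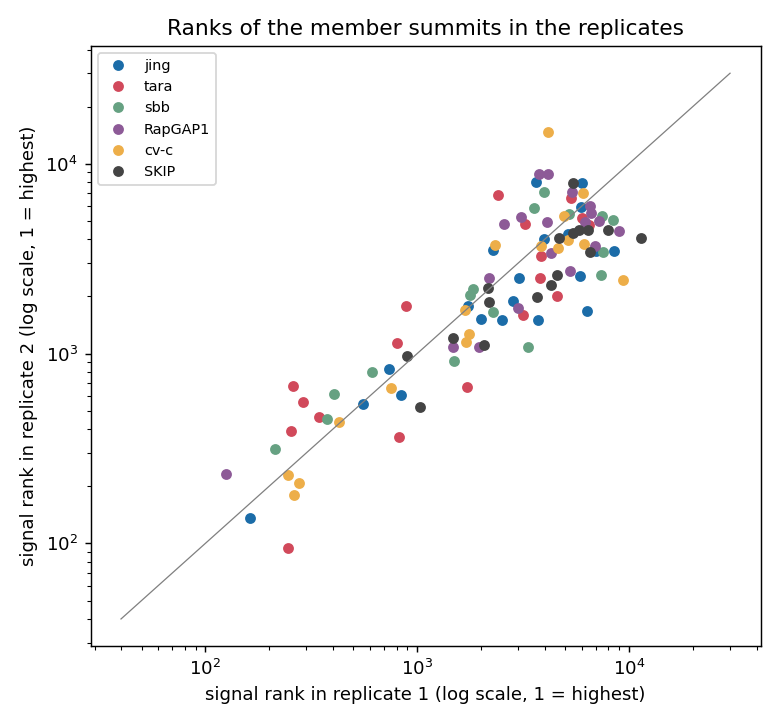
Each point is one of the 107 member summits found in both replicates, with its signal rank in replicate 1 on the x axis and in replicate 2 on the y axis (log scales, 1 is the highest); the line marks equal ranks. Of these, 41, or 38.3%, ranked higher in replicate 1 and 66 in replicate 2, where 50.3% of all matched IDR summits ranked higher in replicate 1.

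The summits ranked from 145 to 6414 among the 6516 of the list, with a median of 3058, so none was among the very highest. The median rank was 1958 at sbb, 2326 at tara, 2734 at jing, 3172 at cv-c, 4137 at RapGAP1 and 4163 at SKIP. Of the 14 member summits among the 500 highest, tara had 5, cv-c 4, sbb 3, jing 1 and RapGAP1 1, and SKIP none. This is 12.8% of the member summits, where the share was 7.67% over all IDR summits and 8.04% in the windows of the long genes. By this count jing and RapGAP1 had a single summit each. Among the 1000 highest RapGAP1 still had 1, jing 4 and tara 8. Of the 5 at tara, those at ranks 353 and 364 lay in overlapping peak intervals.

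CATATG or CACATG, searched on both strands within 50 bp, was at 35 of the 109 summits, or 32.1% (95% Wilson interval 24.1 to 41.4%, for counting error only). The share was 28.2% over all IDR summits and 33.2% over the 1705 in the windows of the long genes, so that of the members was near both. CACATG was at 22 summits and CATATG at 14. An E-box of any of the 10 forms was at 68, or 62.4%, against 57.2% over the list. By member, CATATG or CACATG was at 9 of 20 summits of jing, 7 of 18 of cv-c, 6 of 17 of SKIP, 5 of 19 of RapGAP1, 4 of 16 of sbb and 4 of 19 of tara. The Wilson intervals of these shares all overlap. At sbb all 4 were CACATG, and at cv-c 5 of the 7 were CATATG. In the jing window 8 of the 11 summits in the higher-signal part of the list (the upper 3258) held one of these forms. At cv-c it was 5 of 9, at SKIP 4 of 7, at RapGAP1 2 of 6, at tara 3 of 14 and at sbb 2 of 9. Over the 6 loci the share in that part was 42.9%. All IDR summits in that part had 32.5%, and those in the windows of long genes 37.5%. In the lower-signal part the order was reversed, with 20.8% at the members, 24.0% over all IDR summits and 29.0% in the windows of long genes.

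Pooled summits outside the IDR list had a lower share at each locus. CATATG or CACATG was at 40 of the members' 317 such summits, or 12.6%, where the background over all 23484 was 14.7%. The count was 6 of 79 at jing, 1 of 29 at tara, 8 of 48 at sbb, 8 of 50 at RapGAP1, 8 of 52 at cv-c and 9 of 59 at SKIP. The 2 kinds of summit lay farthest apart at jing, at 45% and 7.59%, and closest at sbb, at 25% and 16.7%. The Wilson intervals of the 2 kinds overlap at every locus except jing, where they were 25.8 to 65.8% and 3.53 to 15.6%.

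**Figure D3:**
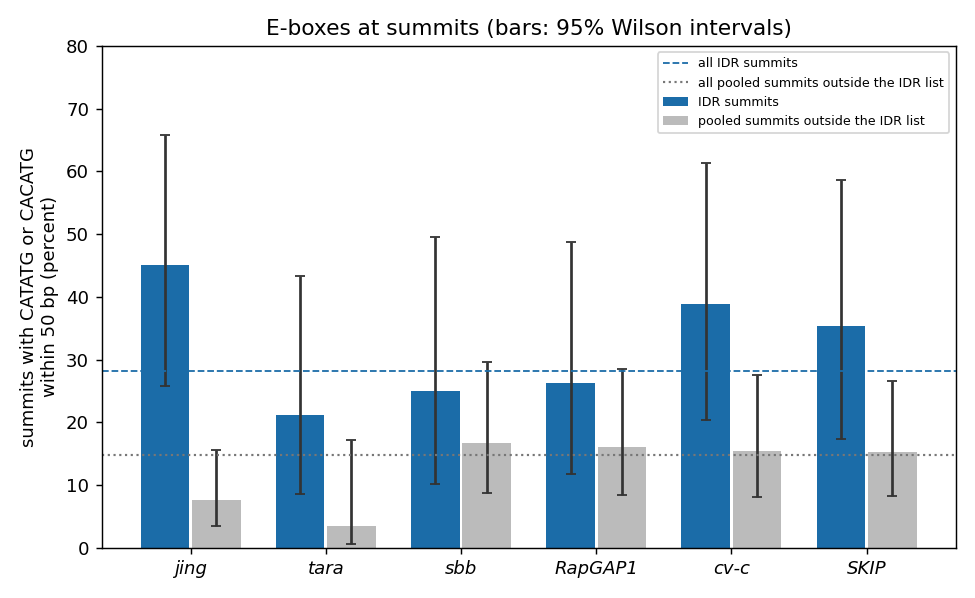
Bars give the percentage of summits with CATATG or CACATG within 50 bp for each locus, for IDR summits and for pooled summits outside the IDR list; error bars are 95% Wilson intervals, and the horizontal lines are the shares over all summits of each kind (28.2% and 14.7%). Jing has the highest share at IDR summits, 45%, and tara the lowest, 21.1%.

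Most copies of these forms were not under a summit. The windows held 551 matches, of which 38, or 6.90%, lay within 50 bp of an IDR summit and 87, or 15.8%, within 50 bp of a pooled summit. Matches were denser at the IDR summits than elsewhere in the same window at each locus. The density was 4.95 per kb at the summits and 0.712 elsewhere at jing, 4.08 and 0.868 at SKIP, 3.85 and 0.998 at cv-c, 2.61 and 0.772 at tara, 2.61 and 0.930 at RapGAP1, and 2.48 and 0.686 at sbb. At the summits these densities rest on 10 matches at jing, 7 at SKIP, 7 at cv-c, 5 at tara, 5 at RapGAP1 and 4 at sbb. The genome had 0.795 per kb. The density at all IDR summits is not given here, so these values do not set the 6 loci apart from other IDR summits.

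The base composition and the replicate ranks of the strongest sites varied with the presence of these forms. Of the 14 summits among the 500 highest, 4 held CATATG or CACATG, with a median G and C share of 47.0%, and all 4 ranked higher in replicate 2. The other 10 had a median of 31.7%, with a range from 16.8 to 52.5%, and 9 of them ranked higher in replicate 1. In the whole IDR list 17.0% of the 500 highest with these forms and 68.0% of those without ranked higher in replicate 1. The part of base composition or of either replicate in these ranks was not tested.

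The summits lay mainly in introns and away from starts. Within 500 bp of an annotated start were 9 of the 109, or 8.26%, where all IDR summits had 39.5% and those in the windows of long genes 21.9%. Of the others, 90 lay in introns, 8 in intergenic sequence and 2 in exons, neither of them coding. The median distance to the nearest start was 5709 bp, against 1031 bp over the list. A rule that asks for many summits in one gene favours long introns, so these shares follow in part from the choice of genes. Of the 9, the member's own starts accounted for 7, 2 at RapGAP1 and 1 at each other locus. The remaining 2 were in the RapGAP1 window, 11 bp from a start of the neighbouring gene Ziz and 125 bp from that of the nested lncRNA:CR44082.

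In jing (FBgn0086655, chromosome 2R, 6502006 to 6621792 in dm6, plus strand) 19 of the 20 summits lay in the first intron, 110.4 kb long. They were widely spaced, by a median of 4091 bp and never under 1466 bp, and a stretch of 23.2 kb held none. The genes nested in jing are lncRNA:CR45127, lncRNA:CR43905, CG15233 and sisRNA:CR46361. The nearest start was that of CG15233 for 6 summits, of lncRNA:CR45127 for 4 and of lncRNA:CR43905 for 4, but none of the 20 lay within 500 bp of a nested start. One, at rank 727 and with a CACATG, lay in an exon of lncRNA:CR43905, 860 bp from its start. The summit upstream of jing was nearest to lncRNA:CR46075, at 1265 bp.

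In tara (FBgn0040071, 3R, 16225651 to 16260329, plus strand) no gene is nested, and 14 of the 19 summits lay in the intron of 30.3 kb. The longest stretch without a summit was 5.64 kb, the shortest such stretch of the 6 loci. The 4 summits upstream of the gene were all strong, at ranks 364, 952, 353 and 300. They lay from 3780 to 1149 bp before its start, on both sides of the start of lncRNA:CR45643, which was 902 to 1524 bp away, and none held CATATG or CACATG. At the other end bor, which encodes an AAA-type ATPase, had the nearest start for 3 summits, among them the strongest of the locus, at 8662 bp.

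In sbb (FBgn0285917, 2R, 18278198 to 18357296, minus strand) 15 of the 16 summits lay in the second intron, 65.6 kb long. A run of 8 lay between 14747 and 23925 bp from the start, with ranks 243, 479 and 647 side by side, and a stretch of 19.0 kb farther downstream held no IDR summit. An sbb start was the nearest for 10 of the 16. The 8 genes nested in sbb are all protein-coding, and 7 lie on the opposite strand. Tango8 had the nearest start for 3 summits, CG14502 for 2 and CG14505 for 1, while CG18536, CG18537, CG18538, CG18539 and CG18540 had it for none. The CG14502 summits, at ranks 1796 and 1915, lay inside that gene, the nearer 559 bp from its start.

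In RapGAP1 (FBgn0264895, 2L, 7497805 to 7578980, minus strand) 10 summits lay in the second intron of the longest transcript and 8 in the first, and a stretch of 23.3 kb in the first held none. The gene has 5 annotated starts, and one of them was the nearest for 10 of the 19. The nested genes lncRNA:CR44082 and lncRNA:CR46063, both on the opposite strand, had the nearest start for 4 summits each. The summit 125 bp from the start of lncRNA:CR44082 ranked 2333 and held a CACATG.

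In cv-c (FBgn0285955, 3R, 14391683 to 14481713, minus strand) 10 summits lay in the first intron, 28.6 kb long, 4 in the fifth and 1 in the second. After the strongest, the first intron held ranks 228 and 231, at 14290 and 3395 bp from the start. The 4 in the fifth intron, at ranks 2718, 1630, 691 and 4215, lay 2490 to 6105 bp from the start of natalisin, a nested neuropeptide gene on the opposite strand. The nested asRNA:CR44176 had the nearest start for 1 summit, 17974 bp away. The summit downstream of cv-c was nearest, at 5027 bp, to a short entry annotated inside the nested mir-2281.

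In SKIP (FBgn0051163, 3R, 22133830 to 22296126, plus strand) 11 of the 17 summits lay between 23 and 30690 bp from the first start. The fourth intron, 103 kb long, held the other 6. A stretch of 47.5 kb without a summit, the longest of the 6 loci, came before a group of 3 between 133582 and 135240 bp, of which the highest ranked 911 and held a CATATG. These 3 were nearest to the start of the nested mir-1010, at 23809 to 25467 bp. The nested lncRNA:CR45224 and Gld2, which encodes a cytoplasmic poly(A) polymerase, had the nearest start for 1 summit each.

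**Figure D4:**
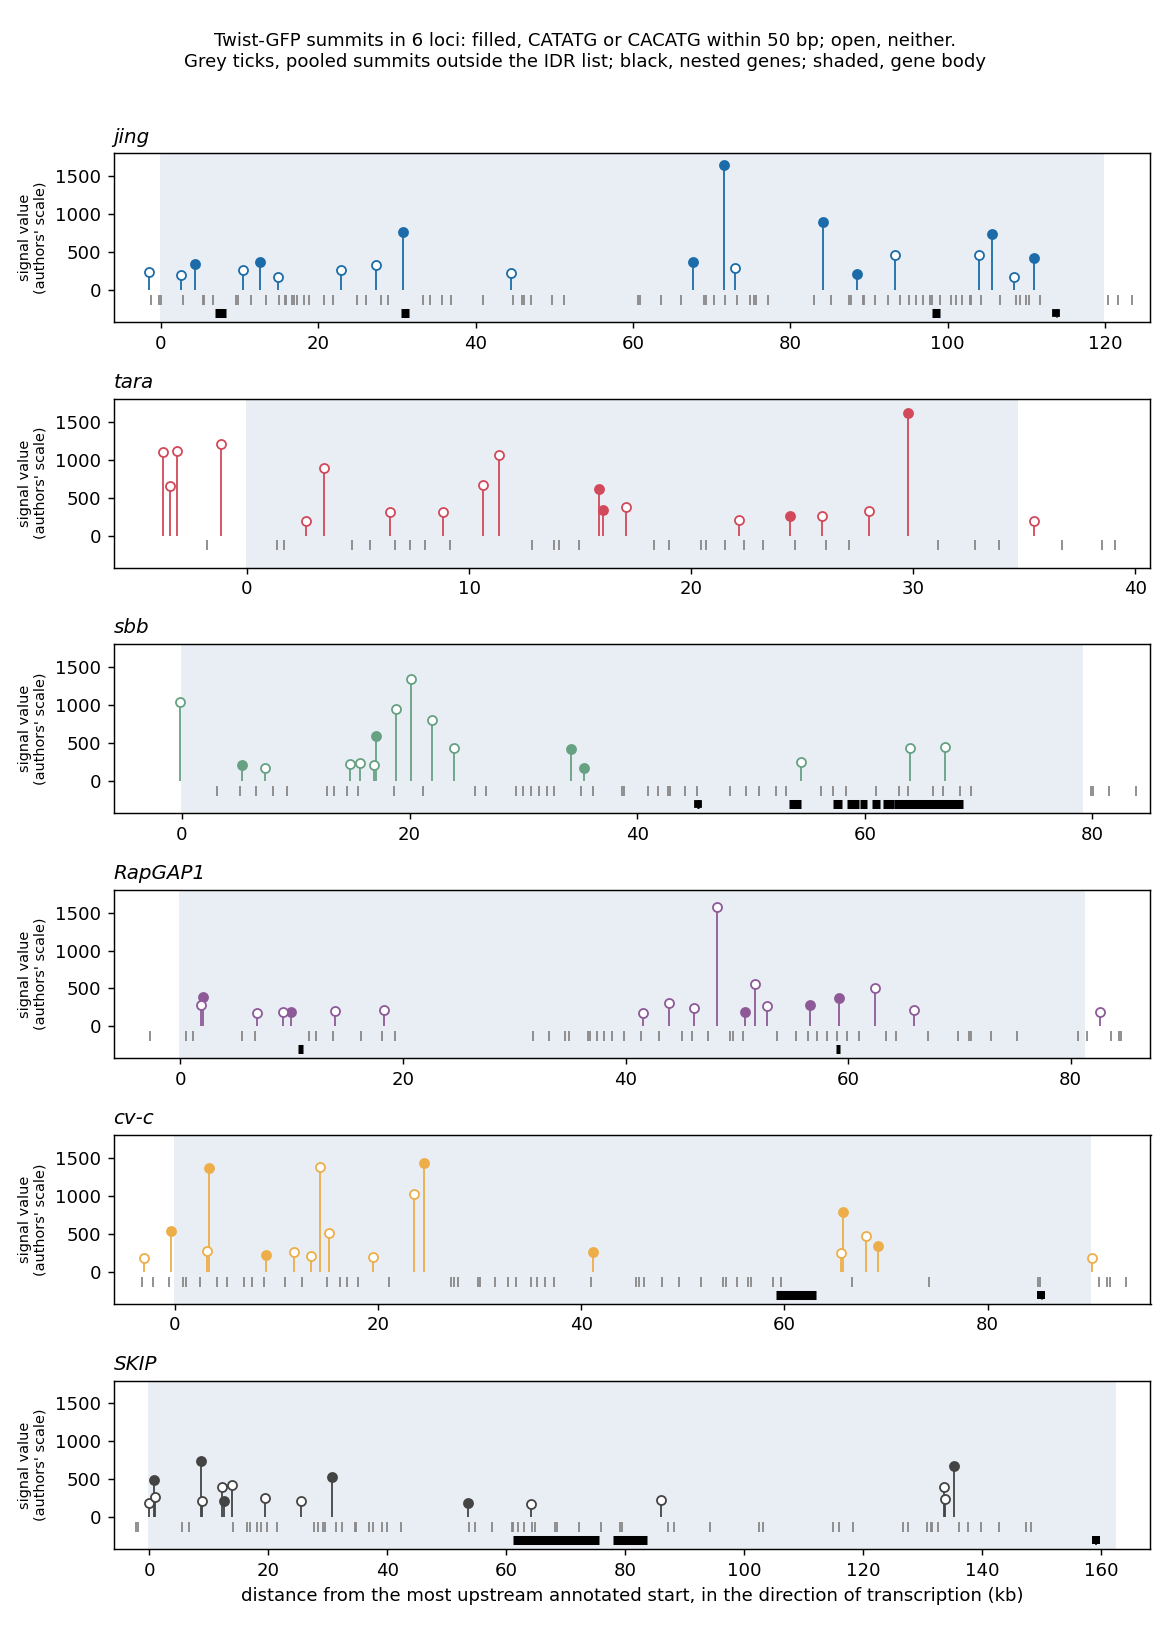
Maps of the 6 loci: the x axis is the distance in kb from the most upstream start in the direction of transcription, and each stem is an IDR summit whose height is the authors' signal value (scale not stated); filled heads have CATATG or CACATG within 50 bp, open heads neither, grey ticks are pooled summits outside the IDR list and black bars nested genes. The 4 upstream summits of tara have open heads, and RapGAP1 has a single tall stem, at rank 162.

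Neighbouring summits were closer in these loci than in the genome, as the choice of dense loci implies. The median distance was 2.54 kb over the 103 pairs of neighbours and 5.61 kb over the list. With summits linked when at most 1 kb apart, 38 of the 109, or 34.9%, fell into 17 clusters, where 26.1% of all IDR summits had a neighbour that close. Jing had no cluster, sbb 2, RapGAP1 3, and tara, cv-c and SKIP 4 each. The clusters with 3 summits lay upstream of tara (622 bp across), in RapGAP1 (1914 bp), in the first intron of cv-c (1749 bp) and at the start of SKIP (917 bp). Not every neighbour is clearly a separate site. In 9 cases the list gave 2 summits in a single peak interval, 199 to 308 bp apart, and the smallest distance in the whole list was 199 bp. The 18 summits concerned are 16.5% of the 109, where 9.27% of all IDR summits and 8.45% of those in the windows of long genes shared an interval. With overlapping intervals counted once, 97 intervals were left, 20 at jing, 18 at RapGAP1, 16 at cv-c, 15 at tara, 15 at sbb and 13 at SKIP, so that the last 3 were under 16.

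**Figure D5:**
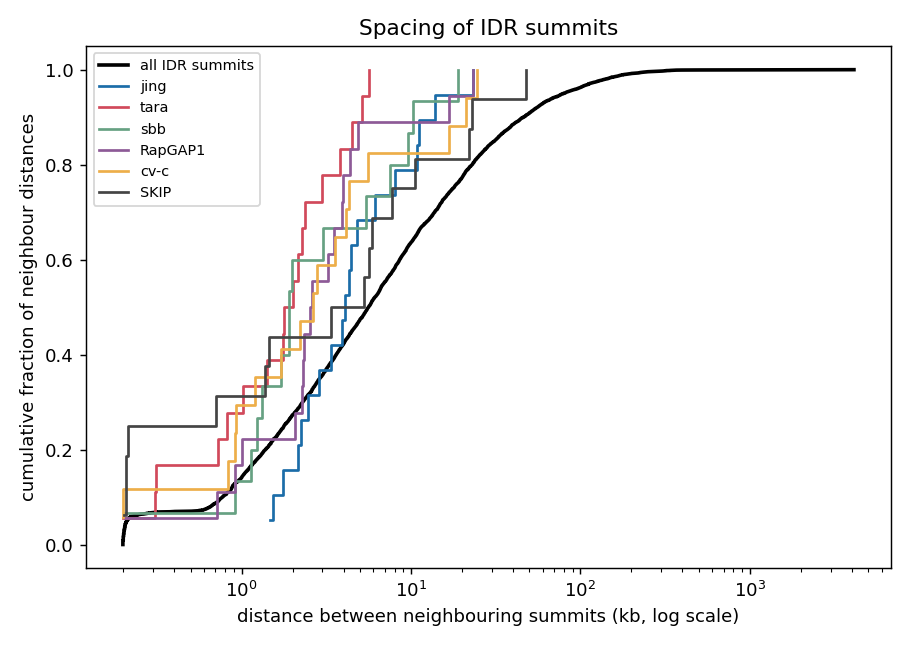
Cumulative fraction (y axis) of distances between neighbouring IDR summits (x axis, kb, log scale), for all IDR summits and for each of the 6 loci. The tara curve is complete at 5.64 kb, while that of SKIP runs to 47.5 kb.

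Genes related to the members by function are set beside the share of all genes, not beside the members, whose counts were fixed by their choice. At least 1 IDR summit in the body or within 5 kb was found for 14 of 18 chromatin factors and co-repressors and for 6 of 10 potassium channels and subunits, where the background over protein-coding genes was 50.1%. The genes differ in length, which was not matched. Among the chromatin factors and co-repressors the co-repressor gene gro had 5, and Gug and osa had 4 each. Among the channels Elk and sei had 4 each, Hk, KCNQ and eag 2 each, and Shal, for which SKIP is named, 1.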

How the data were processed

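Peak lists from 2 biological replicates of 1 group were used. Per the records deposited with the files, each replicate's peaks were called against a control, the pooled list on both replicates' alignments, and the IDR list from the replicate and pooled lists, on assembly dm6. Neither the aligner nor the caller, nor any setting, is given in the sources used here. Signal, as the authors deposited it, has no stated scale and served only for ranks inside one list. The deposited −log10 q-value has a ceiling that all 6516 IDR peaks reach, so it ranked nothing. Read depth is unknown, and Wilson intervals cover counting error only.

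Summits (start plus offset) were counted in gene bodies with 5 kb flanks, with the Ensembl BDGP6 annotation without transposable elements. Replicate summits matched within 100 bp, clusters linked summits at most 1000 bp apart, and E-boxes were searched on both strands of the Release 6 sequence, 50 bp either side of a summit. Python 3.11.15, numpy 2.4.6, pandas 2.3.3, scipy 1.17.1 and matplotlib 3.10.9 were used, and the counting was tested on simulated data. No test was run. The members, gene lists and comparisons were chosen with earlier results of these data known. Named genes are the 6 members, other genes with 15 or more summits and genes whose start was nearest to a member summit. Also named are the 3 genes of each related family with the most summits (ties kept) and the 3 non-member genes most like each member. Other nested genes and Shal were named after their values were seen. The related family lists given hold 18 and 10 genes, and the result of another list is not reported here. Flanks, the signal threshold, each replicate alone, merged intervals, the matching and linking distances, the E-box window and the start distance were varied.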

Additional observations from a re-analysis of the deposited data

How the results depend on the processing

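Of 54 alternative values, 40 stayed within 1.5 times the reported count or inside the 95% Wilson interval of the reported share, and 14 did not, but a count within 1.5 times can still fall under the threshold of 16. In the higher-signal 3258 IDR summits the counts were 11 at jing, 9 at sbb, 6 at RapGAP1, 9 at cv-c and 7 at SKIP, and 14 at tara, all under 16. Also under 16 were tara (14), sbb (15) and cv-c (15) in the gene body alone, tara (15) with a flank of 1 kb, and tara (15), sbb (15) and SKIP (13) with overlapping intervals merged. With the 6516 highest-signal peaks of a single replicate, jing had 19 to 22, tara 19 to 20, sbb 15 to 16, RapGAP1 14 to 19, cv-c 18 to 20 and SKIP 16 to 17, and RapGAP1 and sbb fell under 16 without replicate 2 (14 and 15). The share matched in both replicates was 86.2% within 50 bp, 100% within 200 bp and 100% by overlap of intervals. The share in clusters was 19.3% at 500 bp and 57.8% at 2000 bp, where all IDR summits had 13.8% and 45.6%. CATATG or CACATG was at 13.8% of member summits within 25 bp, 45.9% within 100 bp and 42.9% of the higher-signal ones, where all IDR summits had 17.4%, 38.4% and 32.5%, and with 1 replicate left out at 30.4 to 37.2%. Within 1000 bp of a start were 15.6%, where all IDR summits had 49.5%. For the shares matched in both replicates and those with 1 replicate left out, no value over all IDR summits is given here. A wider window or distance takes in more sites by construction; the cause of the higher E-box share among the higher-signal summits was not tested. No paired analysis was possible because there is 1 group.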

Other observations

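Classes of G and C content in the window of 50 bp on each side, set at 35% and 45% after values were seen, gave the following. Of the member summits matched in both replicates, 19 of 25 under 35% ranked higher in replicate 1, or 76%, as did 12 of 49 at 45% or more, or 24.5%. Over all IDR summits the shares were 81.4% and 28.8%. CATATG or CACATG was at 5 of 25 member summits under 35%, at 14 of 34 in the middle class and at 16 of 50 at 45% or more, and over all IDR summits at 9.56%, 36.3% and 39.0%. Where CATATG or CACATG was present, its centre lay a median of 27.5 bp from the summit in the 6 loci and 17.5 bp over the list. More than 1 such match was at 3 of the 109 member summits, or 2.75%, and at 7.17% of all IDR summits.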
